A study of Mus musculus with 12 samples.

Results

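The genes described here are 84 nuclear genes whose symbols name subunits of the mitochondrial respiratory chain or of ATP synthase, out of 24478 gene symbols in the deposited tables. Membership follows from the symbol. Symbols beginning Nduf and then a, b, c, s or v with a digit gave 37 genes of complex I, Sdha to Sdhd gave 4 of complex II, and Uqcr gave 8 of complex III. Cox with a digit from 4 to 8 gave 18 of complex IV, and Atp5 gave 17 of ATP synthase, also called complex V. RefSeq lists Atp5s as Dmac2l and Atp5sl as Dmac2, so their place under complex V rests on the deposited symbol alone. Symbols listed with several transcripts were read through the transcript with the most reads over the 12 libraries. Of the 84 genes, 81 had enough reads to be tested. The exceptions were Cox8c with 0 reads, Cox7b2 with 1 read and Atp5g2 with 8 reads over all libraries.

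Polyadenylated RNA of mouse thymic tissue was sequenced in 4 groups of 3 libraries. The control tissue carried endogenous MYC alone, and its cells were given as T lymphocytes. Both kinds of thymic lymphoma were also given as T lymphocytes, and carried an ectopic MYC mutant alone. The T58A and S62A mutants put alanine in place of a phosphorylated threonine and serine of MYC. The last group consisted of thymic masses from MYCS62A splenomegaly, given as T and B lymphocytes with both the ectopic S62A mutant and endogenous MYC, and is called splenomegaly masses here. The labels used here give no strain, age or driver of the ectopic MYC. They also do not state whether each library had its own animal, and the p-values therefore measure the spread among these libraries, which may be technical.

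Complex I takes electrons from NADH and complex II takes them from succinate, and both pass them to ubiquinone. Complex III hands them on to cytochrome c and complex IV to oxygen, while ATP synthase uses the proton gradient so formed to make ATP. Most subunits are encoded in the nucleus and imported, and a core set is encoded in mitochondrial DNA, whose transcripts were not analysed here. MYC binds E-box sequences and is known for raising genes of mitochondrial biogenesis, and NRF1 and the ETS-family factor GABP are textbook regulators of respiratory subunit genes.

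The libraries held between 9577373 and 22437969 reads over genes, of which the 84 genes took between 0.909% and 1.28%. Myc, the gene engineered in this study, was listed at 39.4, 36.9 and 37.7 (controls), 70.5, 60.6 and 62.3 (T58A), 67.4, 87.8 and 67.4 (S62A) and 35.3, 40.1 and 42.2 (splenomegaly) FPKM (reads scaled to transcript length and library depth). Its log2 difference from controls was 0.79 ± 0.13 (adjusted p = 0.000876) in T58A lymphomas, 1.06 ± 0.13 (adjusted p = 0.000109) with S62A and 0.15 ± 0.13 (adjusted p = 0.347) in the splenomegaly group, with the standard error after ± here and below. These reads do not separate ectopic from endogenous Myc. Control 3 stood apart by markers of brown fat, a tissue rich in mitochondria: their 6 summed genes reached 341 FPKM there and 8.15 and 10.4 FPKM in the other controls. Ucp1, the uncoupling protein that defines brown fat, was listed at 1.30, 0.163 and 179 FPKM in controls 1, 2 and 3. Counts are therefore also given without control 3, and calls against controls that were lost without it are named.

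Cell composition moved with the groups. Summed FPKM of 7 markers of double-positive thymocytes ran from 3811 to 4255 in controls, 1720 to 1959 in T58A lymphomas, 938 to 1834 in S62A lymphomas and 113 to 128 in splenomegaly masses. The 8 macrophage markers summed to 625 to 747 FPKM in controls and to 4088 to 7435 FPKM in splenomegaly masses, with 1859 to 2590 and 1454 to 2091 FPKM in T58A and S62A lymphomas. The 7 B cell markers summed to 1241 to 1648 FPKM in splenomegaly masses against 56.3 to 60.3 FPKM in controls. They summed to 169, 250 and 17.8 FPKM in T58A lymphomas 1 to 3 and to 17.2 to 34.5 FPKM in S62A lymphomas. The 8 T cell markers summed to 5065 to 5396 FPKM in controls and 1076 to 1454 FPKM in T58A lymphomas. Their sums were 545 to 1333 FPKM in S62A lymphomas and 630 to 643 FPKM in splenomegaly masses. Of 7 proliferation markers, 6 were lower in splenomegaly masses than in controls, and their sum ran from 316 to 427 against 745 to 845 FPKM. All 6 markers of thymic epithelium were lower in S62A lymphomas and splenomegaly masses than in controls. Their sum was also low in T58A lymphomas, at 45.6 to 72.3 FPKM against 1673 to 1860 FPKM in controls. The part of these cell types in the results below was not tested, and in bulk tissue fewer cells of a type and less RNA per cell cannot be told apart.

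Most of these genes are abundant. Their median level was 143 FPKM against 11.1 FPKM over the 15606 genes tested, 57 of 84 stood at 100 FPKM or more, and 10 stood under 10 FPKM. Levels per transcript length had medians of 128, 166, 168, 110.0 and 198 FPKM for complexes I to V. Within complex II the genes lay close together, with Sdhc at 169, Sdhb at 167, Sdhd at 165 and Sdha at 120 FPKM. The tested genes of complex IV ran from 758 FPKM for Cox4i1 to 3.25 FPKM for Cox6a2, the isoform known from heart and skeletal muscle. The highest level in the whole set was that of Atp5b, the catalytic beta subunit of ATP synthase, at 918 FPKM.

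In T58A lymphomas 7 genes were higher and 8 lower than in controls among the 81 tested, whereas 36.2% of all genes tested were called in that comparison (18.8% higher and 17.4% lower). S62A lymphomas had 8 higher and 14 lower genes against controls, beside 44.1% of all genes (21.9% higher and 22.2% lower). Splenomegaly masses had 2 higher and 28 lower genes against controls, beside 49.2% of all genes (22.9% higher and 26.3% lower). Without control 3, which holds brown fat transcripts, the counts were 4 and 5, 5 and 8, and 2 and 15. Calls over all genes also fell without it. For T58A lymphomas they went from 2938 higher and 2708 lower to 2095 and 1998. For S62A lymphomas they went from 3414 and 3471 to 2523 and 2767. In splenomegaly masses they went from 3578 and 4103 to 2857 and 3478. Without control 1, T58A calls over all genes came to 2002 higher and 1915 lower, and without control 2 to 1973 and 1892. Whether the shares of the 81 genes differ from those of other genes was not tested. Their differences were small: the absolute log2 difference was under 0.5 in 64 of 81 genes for T58A lymphomas, 59 for S62A lymphomas and 52 for splenomegaly masses. Over all genes tested the same held for 43.3%, 40.2% and 36.1%. Median log2 differences of the 81 genes were 0.00, -0.07 and -0.23, against 0.01, 0.00 and -0.08 over all genes tested.

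**Figure D1:**
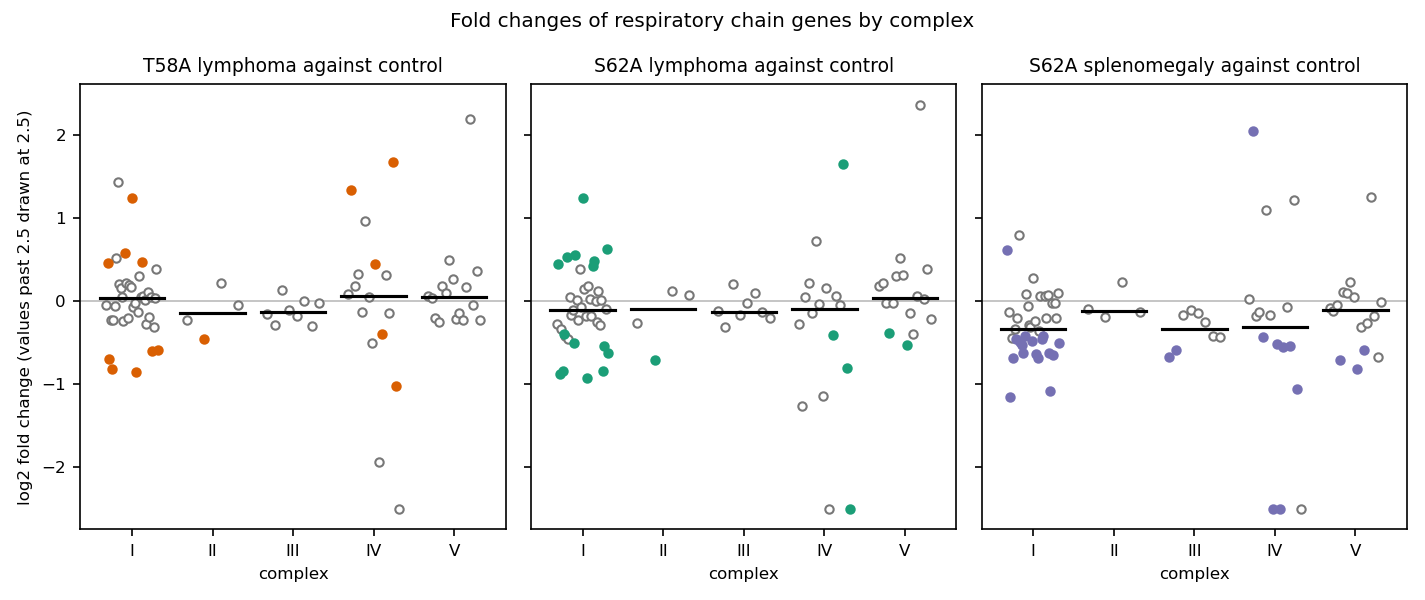
Log2 difference from controls of each tested gene, by complex, in T58A lymphomas, S62A lymphomas and splenomegaly masses. Each point is 1 gene, filled where the adjusted p passed 0.05 and open where it did not, each bar is the median of the complex, and values past the axis limit are drawn at its edge; most points lie near 0, and splenomegaly masses hold 28 filled points below it.

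All 3 comparisons use the same controls, so their values are set side by side and not counted as independent. The 5 genes higher in both lymphomas were Ndufb4, Ndufa9, Ndufa10, Ndufc2 and Cox7c. The 8 genes lower in both were Cox8a, Ndufa11, Ndufa13, Ndufb7, Ndufs7, Ndufv3, Cox7a2 and Sdhb, and all of these except Sdhb were also lower in splenomegaly masses. Ndufc2 and Cox6c, both higher in at least 1 kind of lymphoma than in controls, were lower than controls in splenomegaly masses. No gene was higher in one kind of lymphoma and lower in the other, and 32 of the 81 were called in no comparison between any 2 groups. Of the 32, 11 belong to complex V, 10 to complex I, 5 to complex III, 3 to complex II and 3 to complex IV. The same overlaps were not counted over all genes tested, so these counts do not set the chain apart from other genes.

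**Figure D2:**
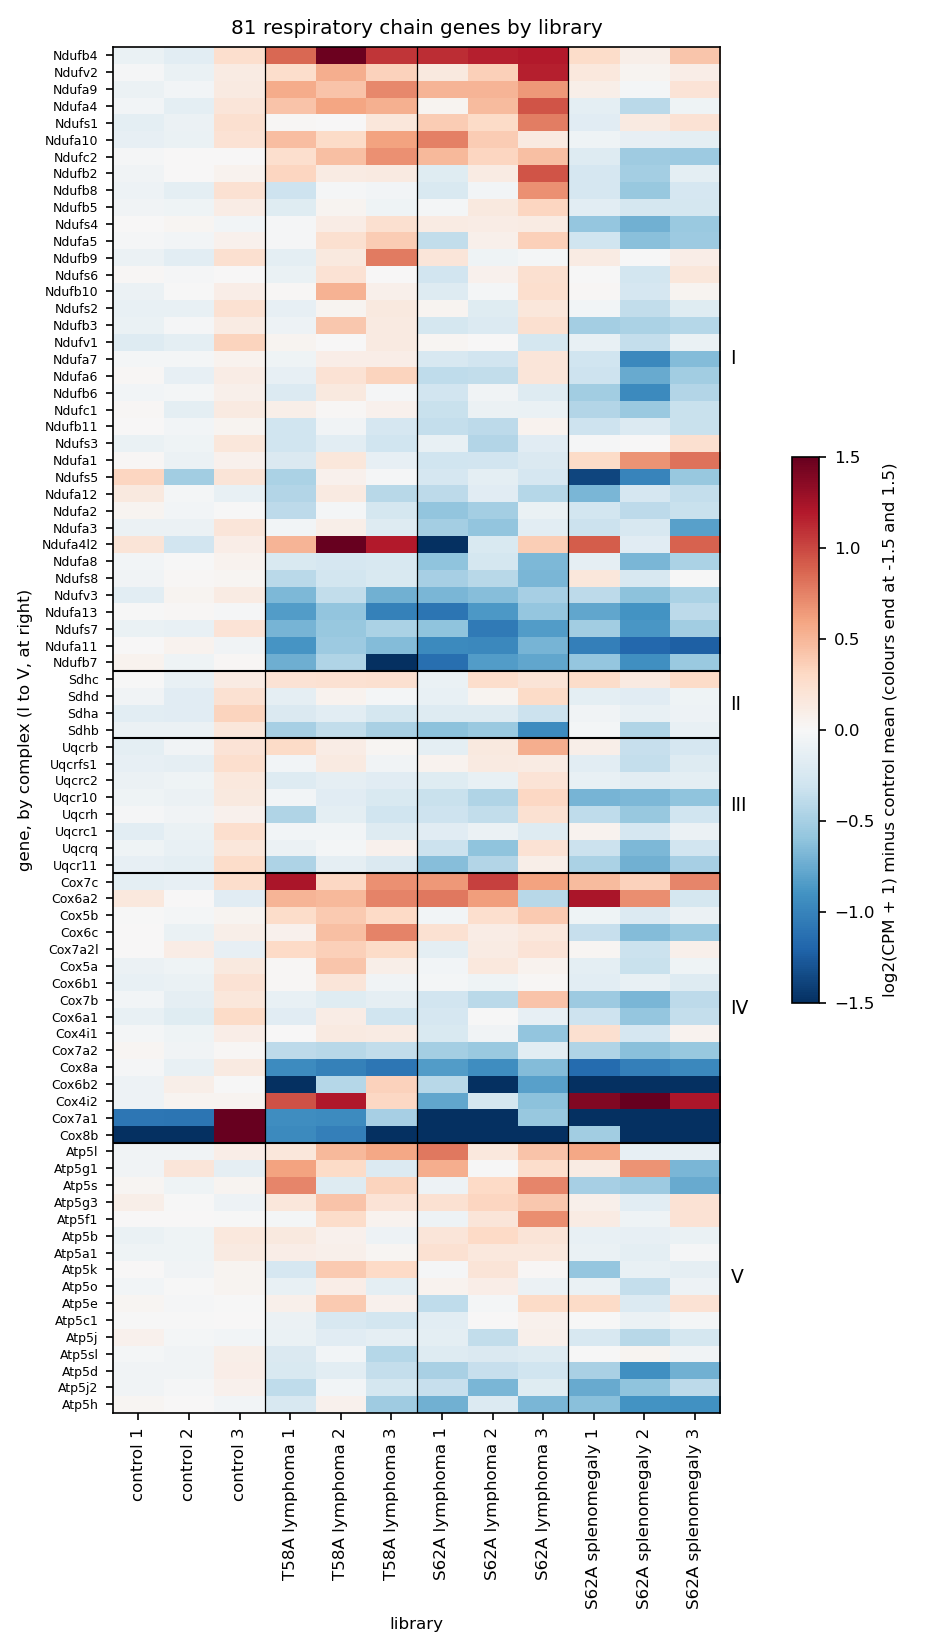
Heat map of the 81 tested genes, grouped by complex, in the 12 libraries. Colour gives log2(CPM + 1) minus the control mean of the gene, with the colour scale ending at 1.5 in either direction; blocks of genes that are low in all 9 lymphoma and mass libraries stand next to genes that are high in the 6 lymphoma libraries.

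Promoter sequences were read for genes that moved and 1 that did not. The 250 bases before the start of 69 of the 84 genes were matched in RefSeq (GRCm38.p6) and searched on both strands for 4 motifs: GCGC, any base and TGCGC for NRF1, ACTTCCG for ETS factors, GCCATNTTG for YY1 and CACGTG for the E-box. The last 150 bases before the start are printed for Ndufb4 and Ndufa9, which rose in both lymphomas, for Cox8a, which fell in all 3 groups, and for Sdha, called in none of the 3 comparisons with controls. Capitals mark motif matches, all sequences run 5′ to 3′ on the minus strand of the genome, and GCGCAGGCGC and GCGCAAGCGC are NRF1 matches on the opposite strand.
Ndufb4 (chr16:37654369-37654518): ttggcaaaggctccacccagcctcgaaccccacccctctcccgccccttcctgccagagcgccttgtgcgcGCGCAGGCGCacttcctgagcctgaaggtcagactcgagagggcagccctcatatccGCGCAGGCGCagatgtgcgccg
Ndufa9 (chr6:126849145-126849294): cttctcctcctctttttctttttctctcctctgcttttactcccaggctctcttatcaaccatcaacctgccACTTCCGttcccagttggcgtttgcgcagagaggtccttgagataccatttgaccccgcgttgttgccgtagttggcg
Sdha (chr13:74350241-74350390): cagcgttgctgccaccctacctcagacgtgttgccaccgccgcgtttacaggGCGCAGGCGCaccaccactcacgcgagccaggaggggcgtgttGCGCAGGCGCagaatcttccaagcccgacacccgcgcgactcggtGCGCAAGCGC
Cox8a (chr19:7217617-7217766): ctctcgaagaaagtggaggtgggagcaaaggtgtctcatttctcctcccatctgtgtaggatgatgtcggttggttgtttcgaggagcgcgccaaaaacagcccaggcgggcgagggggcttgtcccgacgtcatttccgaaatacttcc
Both Ndufb4 and Sdha hold the NRF1 motif more than once, Ndufa9 holds the ETS motif, and none of the 4 motifs is in this stretch of Cox8a. Over the 69 promoters the NRF1 motif was found in 12 (17.4%), against 7.41% of the promoters of genes tested and 3.86% of all 27025 promoters. The E-box was found in 7 of 69 (10.1%) against 7.91% of genes tested. Of these 7, 5 were among the 16 promoters grouped under complex V: Atp5f1, Atp5g1, Atp5g3, Atp5l and Atp5sl, the last listed as Dmac2 in RefSeq. None of the promoters of genes called higher or lower in either lymphoma against controls held CACGTG in this window. These promoters were few and in part of the same genes, 5 higher and 8 lower for T58A and 7 and 13 for S62A lymphomas. The absence of a match in so few is not read further. The ETS motif was found in 7 (10.1%) against 8.79% of genes tested, and the YY1 motif in 3 (4.35%) against 1.75%. A match describes letters, not binding, and the 4 promoters were picked after the values were seen.

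Complex I held genes called in opposite directions in the same tissue, as did all genes tested. Over all genes 18.8% were higher and 17.4% lower in T58A lymphomas, 21.9% and 22.2% with S62A, and 22.9% and 26.3% in splenomegaly masses. In T58A lymphomas 4 of the 37 genes of complex I rose and 5 fell, in S62A lymphomas 7 rose and 8 fell, and in splenomegaly masses 1 rose and 16 fell. Without control 3 these became 3 and 4, 4 and 6, and 1 and 8. The 7 core subunits, which carry the flavin, the iron-sulfur clusters and the quinone site, had 0 higher and 1 lower in T58A lymphomas, 2 and 2 with S62A, and 0 and 1 in the masses with splenomegaly. The 28 other subunits, leaving aside Ndufa4 and Ndufa4l2, had 4 higher and 4 lower, 4 and 6, and 1 and 15. Their median log2 difference in splenomegaly masses was -0.43, and that of the core was -0.02; the difference between these medians was not tested.

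Ndufb4, an accessory subunit of the distal membrane arm (chr16:37647688-37654454, minus strand on mm9, the build of the deposited files), had 7.17, 6.89 and 9.49 (controls), 15.0, 23.4 and 17.4 (T58A), 17.9, 18.7 and 19.0 (S62A) and 9.66, 8.31 and 10.7 (splenomegaly) CPM (counts scaled to the depth of each library). All 6 lymphoma libraries lay above every control and every splenomegaly mass. Its log2 difference from controls was 1.24 ± 0.23 (adjusted p = 0.00198) in T58A and 1.24 ± 0.23 (adjusted p = 0.00161) in S62A lymphomas. Of its 50-base windows 37.0% also occur in other genes, and how such reads were assigned is not given in the sources used here. Ndufa9, which sits by the quinone chamber (chr6:126771881-126799162, minus strand), had 100, 104 and 117 (controls), 157, 144 and 176 (T58A), 152, 152 and 169 (S62A) and 114, 105 and 123 (splenomegaly) CPM, and only 1.43% of its windows are shared. It too was above all controls in each lymphoma library, by 0.58 ± 0.12 (adjusted p = 0.00304) in T58A and 0.56 ± 0.12 (adjusted p = 0.00279) in S62A lymphomas.

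Ndufc2, a membrane-arm subunit (chr7:104548513-104556310, plus strand), separated the groups in both directions. It had 105, 107 and 107 (controls), 127, 146 and 172 (T58A), 149.7, 133 and 147 (S62A) and 93.4, 73.6 and 72.9 (splenomegaly) CPM. Lymphomas lay above the controls, by 0.47 ± 0.14 (adjusted p = 0.0187) for T58A and 0.42 ± 0.14 (adjusted p = 0.0258) for S62A, and splenomegaly masses lay below them, at -0.42 ± 0.14 (adjusted p = 0.0256). Ndufa10, an accessory subunit related to nucleoside kinases, had 69.0, 70.0 and 87.2 (controls), 104, 91.6 and 115 (T58A), 127, 97.9 and 82.7 (S62A) and 71.4, 68.6 and 67.6 (splenomegaly) CPM. T58A lymphomas lay above all controls at 0.46 ± 0.16 (adjusted p = 0.0467), whereas S62A lymphomas overlapped control 3 at 0.44 ± 0.16 (adjusted p = 0.0447). Over the settings tried, those calls held in 7 of 17 and 3 of 16. None of the 3 calls of Ndufc2 against controls passed on leaving out any 1 control (adjusted p = 0.0559 to 0.0797).

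Among the genes of complex I that fell in all 3 groups, Ndufb7, a subunit on the intermembrane side (chr8:86090657-86095522, plus strand), had 129.6, 119.6 and 127 (controls), 74.8, 91.1 and 43.1 (T58A), 56.7, 69.9 and 72.3 (S62A) and 83.2, 65.6 and 84.8 (splenomegaly) CPM. Each control exceeded each other library. Its log2 difference from controls was -0.85 ± 0.23 (adjusted p = 0.0136) in T58A lymphomas, -0.92 ± 0.23 (adjusted p = 0.00752) with S62A and -0.69 ± 0.23 (adjusted p = 0.0264) in the splenomegaly group. With counts offset by G+C content none of these passed, at -0.53 (adjusted p = 0.0796), -0.42 (adjusted p = 0.146) and -0.33 (adjusted p = 0.238). The call in splenomegaly masses held in 9 of 16 settings and was also lost on leaving out any 1 control or any 1 mass, at adjusted p = 0.0619 without control 3. Ndufa13, also known as GRIM-19 (chr8:72418081-72426457, minus strand), had 124, 127 and 123 (controls), 69.2, 82.2 and 61.2 (T58A), 57.9, 68.0 and 82.9 (S62A) and 72.0, 66.5 and 94.4 (splenomegaly) CPM. It was lower than every control in all 9 other libraries, at -0.81 ± 0.17 (adjusted p = 0.00386), -0.84 ± 0.17 (adjusted p = 0.00259) and -0.68 ± 0.17 (adjusted p = 0.00661) in the same order. Ndufa13 shares 28.5% of its windows with other genes, and Tssk6 lies over it on the opposite strand.

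Ndufa11, a membrane subunit at the contact with complex III (chr17:56857185-56863671, plus strand), had 98.4, 101 and 93.9 (controls), 52.2, 66.8 and 61.96 (T58A), 49.8, 49.6 and 60.0 (S62A) and 47.6, 42.8 and 41.2 (splenomegaly) CPM. The controls lay well above the 9 other libraries, which ran from 41.2 to 66.8 CPM. Its log2 difference was -0.70 ± 0.13 (adjusted p = 0.0018) in T58A lymphomas, -0.88 ± 0.13 (adjusted p = 0.000353) with S62A and -1.16 ± 0.13 (adjusted p = 4.29e-05) in the splenomegaly group. Ndufs7, the core subunit beside the quinone site (chr10:79712197-79719537, plus strand), had 76.7, 75.8 and 94.9 (controls), 50.3, 54.9 and 58.7 (T58A), 53.6, 38.7 and 45.5 (S62A) and 56.7, 44.4 and 57.0 (splenomegaly) CPM and differed by -0.59 ± 0.16 (adjusted p = 0.0134), -0.84 ± 0.16 (adjusted p = 0.00168) and -0.64 ± 0.16 (adjusted p = 0.00609), the first of which was -0.48 (adjusted p = 0.0639) without control 3. Ndufv3, a small subunit of the NADH-oxidising module, had 94.9, 109 and 116 (controls), 66.3, 82.3 and 64.1 (T58A), 65.5, 68.0 and 74.7 (S62A) and 80.8, 69.0 and 76.3 (splenomegaly) CPM and differed by -0.59 ± 0.13 (adjusted p = 0.00521), -0.62 ± 0.13 (adjusted p = 0.00316) and -0.50 ± 0.13 (adjusted p = 0.00826). Both were lower than all controls in every lymphoma and mass library.

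Core subunits of the peripheral arm were called in both directions in S62A lymphomas, but none of the 3 calls that follow passed with counts offset by G+C content. Ndufv2, an iron-sulfur subunit of the NADH-oxidising module, had 125, 119 and 138 (controls), 153, 187 and 162 (T58A), 142, 163 and 287 (S62A) and 142, 131 and 136 (splenomegaly) CPM, with S62A lymphoma 3 far above the rest. It was higher in S62A lymphomas than in controls by 0.63 ± 0.22 (adjusted p = 0.0366), which became 0.26 (adjusted p = 0.124) without that library did not pass without any 1 of the controls (0.58 to 0.69, adjusted p = 0.0633 to 0.112) and was 0.42 (adjusted p = 0.151) with the offset. Ndufs1, the largest core subunit, had 101, 105 and 132 (controls), 114, 112 and 126 (T58A), 147, 137 and 192 (S62A) and 99.5, 123 and 129.9 (splenomegaly) CPM and was also higher, by 0.49 ± 0.16 (adjusted p = 0.0289), or 0.33 (adjusted p = 0.105) without S62A lymphoma 3, with adjusted p = 0.113 and 0.102 without control 1 and control 2 and 0.084 with the offset. Ndufs8, which carries a pair of iron-sulfur clusters, had 102, 108 and 108 (controls), 79.8, 87.7 and 90.4 (T58A), 74.9, 79.5 and 65.9 (S62A) and 119, 90.01 and 106 (splenomegaly) CPM. It was lower in S62A lymphomas than in controls, at -0.53 ± 0.12 (adjusted p = 0.00535), or -0.11 (adjusted p = 0.395) with the offset, and its T58A libraries also lay below all controls at -0.31 ± 0.12 (adjusted p = 0.0726), which did not pass.

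Splenomegaly masses were set apart by Ndufa1, a small membrane subunit of complex I (chrX:34727584-34731233, minus strand), the single gene of the 81 higher there than in each of the other 3 groups. It had 67.0, 62.6 and 69.6 (controls), 57.2, 74.8 and 60.6 (T58A), 53.8, 54.2 and 57.1 (S62A) and 81.4, 107 and 117 (splenomegaly) CPM. All 3 masses exceeded every other library, by 0.61 ± 0.15 (adjusted p = 0.00549) against controls, 0.66 ± 0.15 (adjusted p = 0.0041) against T58A and 0.89 ± 0.15 (adjusted p = 0.00053) against S62A lymphomas. Rnf113a1 lies over Ndufa1 on the opposite strand. In the other direction 10 genes were lower in splenomegaly masses than in all 3 other groups: Atp5d, Cox6b2, Cox6c, Ndufa5, Ndufa7, Ndufb6, Ndufc2, Ndufs4, Ndufs5 and Uqcr10. Ndufs4 alone of these held in every setting tried in all 3 comparisons. Ndufa5 held in 5 of 16 settings against controls. Atp5d, Ndufb6 and Ndufs5 each held in 6 of 16 against S62A lymphomas, and Uqcr10 in 8 of 16 against T58A lymphomas. Overlaps of this kind were not counted over all genes tested. Ndufs4, which stabilises the NADH-oxidising module (chr13:115078003-115178302, minus strand), had 120.5, 122 and 116 (controls), 118, 129 and 142 (T58A), 131, 129 and 129.8 (S62A) and 79.8, 72.2 and 80.8 (splenomegaly) CPM and was lower than in controls, at -0.62 ± 0.10 (adjusted p = 0.000447). Ndufs5, on the intermembrane side, had 18.0, 9.59 and 16.3 (controls), 9.93, 14.8 and 13.9 (T58A), 11.71, 12.7 and 11.74 (S62A) and 4.83, 6.62 and 9.26 (splenomegaly) CPM and was lower, at -1.09 ± 0.31 (adjusted p = 0.014), with 41.2% of its windows shared with other genes.

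Sdhb was the single gene of complex II that was called in any comparison. Sdhb, its iron-sulfur subunit (chr4:140517186-140535107, plus strand), had 151, 151 and 181 (controls), 114, 124 and 115 (T58A), 105, 109 and 83.1 (S62A) and 157, 117 and 149 (splenomegaly) CPM. Every lymphoma library lay below every control, with log2 differences of -0.46 ± 0.14 (adjusted p = 0.0287) for T58A and -0.71 ± 0.14 (adjusted p = 0.00277) for S62A, and splenomegaly masses overlapped the controls at -0.19 ± 0.14 (adjusted p = 0.291). The T58A call did not pass on leaving out any 1 control, at -0.37 (adjusted p = 0.116) without control 3, or with the G+C offset, at -0.31 (adjusted p = 0.0911). Sdhb was higher in splenomegaly masses than in S62A lymphomas by 0.51 ± 0.14 (adjusted p = 0.0112). Sdha, the flavoprotein, had 268, 265 and 378 (controls), 258, 268 and 250.1 (T58A), 262, 261 and 239 (S62A) and 289.7, 277 and 284 (splenomegaly) CPM, with control 3 above all other libraries. Sdhc, a membrane anchor and the highest gene of the complex per length, was listed at 158, 147 and 171 (controls), 178, 182 and 186 (T58A), 137, 179 and 169.7 (S62A) and 175, 166 and 177 (splenomegaly) FPKM. T58A lymphomas lay just above the controls, at 0.22 ± 0.12 (adjusted p = 0.154). Neither Sdha, Sdhc nor Sdhd was called in any of the 6 comparisons.

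No gene of complex III was called in either lymphoma against controls. By the edgeR quasi-likelihood test 0 of the 8 had an unadjusted p under 0.05 in either, and DESeq2 and limma-voom also called 0. The median log2 differences of its 8 genes were -0.13 in T58A and -0.13 in S62A lymphomas. Uqcrh, the hinge protein that helps cytochrome c dock and the highest of them, was listed at 595, 581 and 617 (controls), 422, 531 and 482 (T58A), 446, 434 and 655 (S62A) and 418, 384 and 447 (splenomegaly) FPKM. Controls 1 to 3 lay close together and S62A lymphoma 3 lay above them while its sister libraries lay below. Its log2 differences from controls were -0.30 ± 0.16 (adjusted p = 0.172), -0.13 ± 0.16 (adjusted p = 0.545) and -0.41 ± 0.16 (adjusted p = 0.0528), none of which passed. In splenomegaly masses 2 genes of the complex fell, both small accessory subunits. Uqcr10 had 126, 124 and 146 (controls), 128, 117 and 112 (T58A), 104, 96.1 and 164 (S62A) and 81.1, 81.9 and 86.3 (splenomegaly) CPM and fell by 0.67 ± 0.18 (adjusted p = 0.00912), and Uqcr11 had 76.9, 75.4 and 102 (controls), 60.5, 76.5 and 72.2 (T58A), 53.3, 61.6 and 89.4 (S62A) and 59.9, 50.5 and 58.9 (splenomegaly) CPM and fell by 0.59 ± 0.20 (adjusted p = 0.0283), or by 0.44 (adjusted p = 0.118) without control 3.

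In complex IV 3 of 16 tested genes rose and 2 fell in T58A lymphomas, 1 rose and 3 fell with S62A, and 1 rose and 7 fell in the masses with splenomegaly. Without control 3 these became 1 and 1, 1 and 1, and 1 and 3. Cox8a, the widely expressed form of subunit 8 (chr19:7289648-7292106, minus strand), fell in all 3. It had 164, 155 and 183 (controls), 86.0, 82.4 and 78.2 (T58A), 92.8, 87.1 and 106 (S62A) and 74.2, 81.6 and 84.6 (splenomegaly) CPM. The 3 controls lay above all other libraries, and its log2 differences were -1.02 ± 0.11 (adjusted p = 8.76e-05) in T58A lymphomas, -0.81 ± 0.11 (adjusted p = 0.000276) with S62A and -1.06 ± 0.11 (adjusted p = 3.28e-05) in the splenomegaly group. None of its 50-base windows occurs in another gene. Cox7a2, the widely expressed form of subunit 7a, had 178, 169 and 177 (controls), 133, 131 and 135 (T58A), 122, 118 and 156 (S62A) and 127, 113 and 117 (splenomegaly) CPM and fell too, with log2 differences of -0.39 ± 0.12 (adjusted p = 0.0228), -0.40 ± 0.12 (adjusted p = 0.0173) and -0.55 ± 0.12 (adjusted p = 0.00279). Without control 3 its calls in T58A and S62A lymphomas were lost, at -0.38 (adjusted p = 0.0686) and -0.39 (adjusted p = 0.0534). Cox6c (chr15:35861731-35868001, minus strand) had 163, 151 and 172 (controls), 169.6, 222 and 272 (T58A), 189.7, 174 and 181 (S62A) and 127, 103 and 109.6 (splenomegaly) CPM. It was highest in T58A lymphomas, where control 3 and T58A lymphoma 1 nevertheless overlapped at 0.45 ± 0.16 (adjusted p = 0.0443), and it was lower in splenomegaly masses than in controls, at -0.52 ± 0.16 (adjusted p = 0.0191), and than in T58A lymphomas, at -0.97 ± 0.16 (adjusted p = 0.000729). The T58A call against controls held in 3 of 17 settings, with log2 differences of 0.28 to 0.61 and adjusted p up to 0.341, and the call in splenomegaly masses against controls was -0.47 (adjusted p = 0.0623) without control 3.

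Cox4i1, the highest gene of complex IV and a regulatory subunit that binds ATP, was listed at 792, 774 and 852 (controls), 784, 871 and 873 (T58A), 638, 734 and 499.9 (S62A) and 867, 645 and 765 (splenomegaly) FPKM. By FPKM all S62A lymphomas lay below every control and every T58A lymphoma, whereas by CPM S62A lymphoma 2, at 417, lay above control 2, at 412. None of its log2 differences from controls passed, at 0.09 ± 0.16 (adjusted p = 0.685), -0.27 ± 0.16 (adjusted p = 0.181) and 0.02 ± 0.16 (adjusted p = 0.912). Cox7c (chr13:86184403-86186400, minus strand) was called higher in both lymphomas at 0.310, 0.331 and 0.736 (controls), 2.37, 0.799 and 1.32 (T58A), 1.27, 1.94 and 1.20 (S62A) and 1.01, 0.841 and 1.40 (splenomegaly) CPM, by 1.68 ± 0.57 (adjusted p = 0.0398) and 1.65 ± 0.57 (adjusted p = 0.0367). These are few reads, 220 over all 12 libraries, and 53.0% of its windows occur in other genes. Its level of 3.32 FPKM is low beside the 758 FPKM of Cox4i1 in the same complex, so its value is uncertain.

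Several subunits of complex IV have a second gene whose product replaces the common form in particular tissues. Ndufa4l2 plays this role beside Ndufa4, which was named for complex I and is now counted with complex IV. Together the 8 isoform genes Ndufa4l2, Cox4i2, Cox6a2, Cox6b2, Cox7a1, Cox7b2, Cox8b and Cox8c had a median level of 4.45 FPKM. Cox8b, the form known from heart, skeletal muscle and brown fat (chr7:148084841-148086345, minus strand), was listed at 2.25, 1.60 and 237 (controls), 6.27, 5.87 and 0.620 (T58A), 0, 0.735 and 0.225 (S62A) and 9.10, 0.363 and 0.700 (splenomegaly) FPKM. Control 3 stood far above all other libraries, and Cox8b made up 0.610%, 0.461% and 37.1% of the summed FPKM of Cox8a and Cox8b in controls 1, 2 and 3. The call in S62A lymphomas, -7.84 ± 2.28 (adjusted p = 0.0169), became -2.44 (adjusted p = 0.246) without control 3. In splenomegaly masses the direction turned without control 3, from -4.35 ± 1.78 (adjusted p = 0.0622) to 0.98 (adjusted p = 0.602). That turn rests on mass 1, which held 52 reads of Cox8b against 1 and 3 in masses 2 and 3. Mass 1 also stood apart by muscle markers: the 8 of skeletal muscle summed to 102 FPKM there against 12.6 and 19.4 FPKM in the other masses, and the 6 of heart muscle to 66.7 against 13.0 and 14.0 FPKM. The 6 brown fat markers summed to 56.5 FPKM in mass 1 against 20.9 and 15.1 FPKM in masses 2 and 3. Skeletal muscle markers summed to 61.1 and 66.6 FPKM in controls 1 and 2, where Cox8b was at 2.25 and 1.60 FPKM. They summed to 27.2 and 24.1 FPKM in T58A lymphomas 1 and 2, where Cox8b was at 6.27 and 5.87 FPKM. The part of these markers in the level of Cox8b was not tested.

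Cox7a1, the other form known from muscle and brown fat (chr7:30969190-30971049, plus strand), was listed at 10.6, 10.5 and 141 (controls), 11.9, 11.9 and 18.1 (T58A), 4.19, 5.78 and 16.0 (S62A) and 3.44, 3.33 and 0.306 (splenomegaly) FPKM. Controls 1 and 2 lay at the level of the T58A lymphomas, and control 3 stood above everything else, with 31.8% of the summed Cox7a1 and Cox7a2 against 3.32% and 3.47%. Its log2 difference in splenomegaly masses, -4.42 ± 1.16 (adjusted p = 0.0086), was -2.05 (adjusted p = 0.0706) without control 3, and every mass still lay below controls 1 and 2. Against controls, T58A lymphomas differed by 0.44 (adjusted p = 0.719) and S62A lymphomas by -0.18 (adjusted p = 0.877) without control 3. Cox7a2l, which joins complexes III and IV into supercomplexes, was listed at 126, 136 and 113 (controls), 148, 157 and 151 (T58A), 104, 128 and 134 (S62A) and 116, 94.8 and 120.5 (splenomegaly) FPKM, with T58A lymphomas above the controls at 0.31 ± 0.13 (adjusted p = 0.0902).

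**Figure D3:**
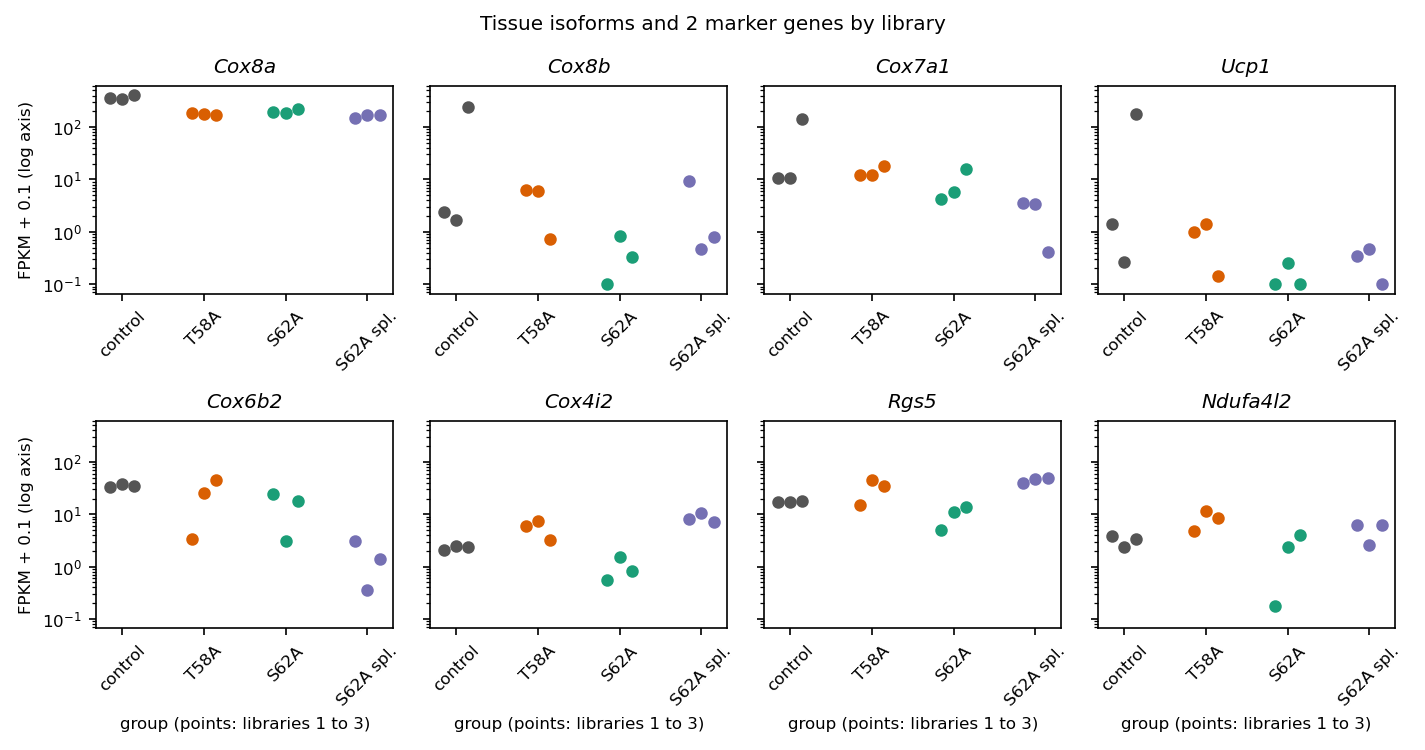
Levels of Cox8a, Cox8b, Cox7a1, Ucp1, Cox6b2, Cox4i2, Rgs5 and Ndufa4l2 in FPKM + 0.1 on a log axis, 1 point per library, by group. Cox8b, Cox7a1 and Ucp1 peak in control 3, and Cox4i2 and Rgs5 are both highest in splenomegaly masses.

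Cox6b2, a form best known from testis (chr7:4703394-4704696, minus strand), did not follow control 3. It was listed at 33.6, 38.1 and 34.9 (controls), 3.22, 25.3 and 45.5 (T58A), 24.1, 3.06 and 17.8 (S62A) and 3.03, 0.251 and 1.29 (splenomegaly) FPKM. The 3 controls were alike, the lymphomas ranged from near the splenomegaly level to above the controls, and all 3 masses lay below every control. Against controls it fell by 4.30 ± 1.03 (adjusted p = 0.0052) in splenomegaly masses, and made up 0.046% to 0.596% of the summed Cox6b1 and Cox6b2 there against 4.68% to 6.13% in controls. Its differences from controls in lymphomas were -0.51 ± 0.86 (adjusted p = 0.674) for T58A and -1.14 ± 0.88 (adjusted p = 0.313) for S62A. With reads summed over its 6 listed transcripts, the mean share was 25.7% in controls and 1.81% in splenomegaly masses, so the share depends on which transcript is read and its order between these groups does not. Cox6b1, the common form, was listed at 574, 583 and 709.9 (controls), 608, 693 and 594 (T58A), 564, 557 and 585 (S62A) and 506, 546 and 499 (splenomegaly) FPKM, and its differences from controls were 0.05 ± 0.11 (adjusted p = 0.774), -0.03 ± 0.11 (adjusted p = 0.831) and -0.16 ± 0.11 (adjusted p = 0.262) in T58A lymphomas, S62A lymphomas and masses.

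Cox4i2, the form known from lung and from responses to low oxygen (chr2:152579909-152590773, plus strand), was the single gene of the 81 that differed between the lymphomas. It was listed at 1.99, 2.35 and 2.31 (controls), 5.92, 7.46 and 3.19 (T58A), 0.454, 1.43 and 0.719 (S62A) and 8.10, 10.6 and 7.07 (splenomegaly) FPKM. Splenomegaly masses were highest as a group, T58A lymphoma 2 lay close to the lowest of them, all T58A lymphomas lay above the controls, and all S62A lymphomas lay below the controls. Splenomegaly masses exceeded controls by 2.05 ± 0.48 (adjusted p = 0.00463) and S62A lymphomas by 3.30 ± 0.52 (adjusted p = 0.000344), and T58A lymphomas exceeded controls by 1.34 ± 0.47 (adjusted p = 0.0448), a call lost without any 1 control (adjusted p = 0.106 to 0.138). S62A lymphomas lay below T58A lymphomas, at -2.60 ± 0.51 (adjusted p = 0.0278). Without S62A lymphoma 1 or 3 or T58A lymphoma 2, that adjusted p was 0.0554, 0.0564 or 0.0864. Its share of the summed Cox4i1 and Cox4i2 was at most 1.62% in any library, and Bcl2l1 lies over it on the opposite strand.

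Pericyte markers ordered the groups as Cox4i2 did, but libraries within the lymphoma groups did not follow. Rgs5, a gene that marks pericytes of small vessels, was listed at 16.9, 16.9 and 17.7 (controls), 15.1, 45.5 and 34.7 (T58A), 4.85, 10.8 and 13.8 (S62A) and 40.1, 47.9 and 49.4 (splenomegaly) FPKM, and the 7 pericyte markers summed to 38.2 to 40.0 in controls, 34.7 to 89.3 in T58A lymphomas, 19.8 to 29.9 in S62A lymphomas and 77.2 to 82.3 FPKM in splenomegaly masses. Of the 7, 4 were higher and 1 lower in splenomegaly masses than in controls. Their part in the level of Cox4i2 was not tested. T58A lymphoma 1 held Cox4i2 at 5.92 FPKM, above the controls, with Rgs5 at 15.1 FPKM, below them. T58A lymphoma 3 had a pericyte sum of 68.5 against 34.7 FPKM in T58A lymphoma 1, but Cox4i2 at 3.19 against 5.92 FPKM. In S62A lymphomas 1 to 3 the sums were 29.9, 19.8 and 22.5 FPKM, and Cox4i2 was at 0.454, 1.43 and 0.719 FPKM. Within splenomegaly masses the sums and Cox4i2 had the same order. Ndufa4l2 was listed at 3.67, 2.28 and 3.31 (controls), 4.75, 11.5 and 8.53 (T58A), 0.0759, 2.27 and 4.01 (S62A) and 6.23, 2.45 and 6.14 (splenomegaly) FPKM, and T58A lymphomas lay above the controls without passing, at 1.44 ± 0.82 (adjusted p = 0.19). Ndufa4 itself, the highest gene grouped under complex I, was listed at 440.4, 411 and 507 (controls), 588, 672 and 652 (T58A), 431, 594 and 814 (S62A) and 370.1, 323 and 398 (splenomegaly) FPKM and differed from controls by 0.52 ± 0.20 (adjusted p = 0.0608) in T58A lymphomas and 0.53 ± 0.20 (adjusted p = 0.0476) in S62A lymphomas, where S62A lymphoma 1 lay among the controls. The S62A call held in 1 of 16 settings, with log2 differences of 0.22 to 0.73 and adjusted p up to 0.372.

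The remaining isoform sets moved little or were barely read. Cox6a1 was listed at 569, 546 and 742 (controls), 526, 653 and 496 (T58A), 478, 577 and 524 (S62A) and 452, 389 and 439.6 (splenomegaly) FPKM, and fell in splenomegaly masses, at -0.43 ± 0.16 (adjusted p = 0.0414), or -0.27 (adjusted p = 0.182) without control 3. Its muscle form Cox6a2 was listed at 2.47, 2.01 and 1.55 (controls), 3.52, 3.50 and 4.58 (T58A), 4.51, 3.88 and 0.952 (S62A) and 6.56, 4.21 and 1.23 (splenomegaly) FPKM. Cox6a2 was called in no comparison with controls, and mass 1 was the highest library. Cox7b was listed at 138, 129.9 and 157 (controls), 127, 123 and 128 (T58A), 107, 101 and 178 (S62A) and 88.4, 83.2 and 99.2 (splenomegaly) FPKM and fell in splenomegaly masses, at -0.54 ± 0.19 (adjusted p = 0.0372), or -0.46 (adjusted p = 0.12) without control 3, and Cox7b2 and Cox8c had 1 and 0 reads in all.

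Few genes of ATP synthase were called. In T58A lymphomas 0 of its 16 tested genes passed the edgeR quasi-likelihood test, 0 had an unadjusted p under 0.05, and DESeq2 and limma-voom also called 0. In S62A lymphomas 2 fell, Atp5d and Atp5h, and neither passed on leaving out any 1 of the controls. In splenomegaly masses 3 fell. Atp5b (chr10:127520363-127527444, plus strand) had 1246, 1281 and 1494 (controls), 1483, 1396 and 1266 (T58A), 1513, 1644 and 1522 (S62A) and 1238, 1227 and 1244 (splenomegaly) CPM. Its log2 differences from controls were 0.04 ± 0.12 (adjusted p = 0.797), 0.22 ± 0.12 (adjusted p = 0.153) and -0.12 ± 0.12 (adjusted p = 0.436). S62A lymphomas lay just above the controls and splenomegaly masses just below them, by amounts that did not pass, and the masses lay below the S62A lymphomas, at -0.34 ± 0.12 (adjusted p = 0.0317). Atp5d, the delta subunit of the central stalk (chr10:79605060-79608563, plus strand), had 248.7, 248.6 and 277 (controls), 219, 231 and 202 (T58A), 184, 202 and 209 (S62A) and 184, 136 and 156 (splenomegaly) CPM. Each splenomegaly mass lay below each other library, mass 1 by under 1 CPM from the lowest S62A lymphoma, and the log2 difference from controls was -0.70 ± 0.13 (adjusted p = 0.000925) there and -0.38 ± 0.13 (adjusted p = 0.0297) in S62A lymphomas, or 0.07 (adjusted p = 0.588) in the latter with counts offset by G+C content.

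Atp5h, of the stalk that holds the head still, had 87.4, 86.5 and 83.6 (controls), 72.7, 89.7 and 59.0 (T58A), 51.6, 74.1 and 53.2 (S62A) and 55.3, 45.6 and 45.3 (splenomegaly) CPM and fell, at -0.53 ± 0.18 (adjusted p = 0.0334) in S62A lymphomas and -0.82 ± 0.18 (adjusted p = 0.00332) in splenomegaly masses, with 50.5% of its windows shared with other genes. Atp5j2, a small membrane subunit, had 76.3, 78.2 and 82.6 (controls), 60.2, 77.0 and 65.7 (T58A), 61.7, 48.6 and 69.7 (S62A) and 46.5, 51.6 and 59.8 (splenomegaly) CPM and fell by 0.59 ± 0.16 (adjusted p = 0.00915) in splenomegaly masses. Atp5s, a low gene of the set whose product is associated with ATP synthase, had 10.6, 9.92 and 10.7 (controls), 17.9, 8.95 and 13.4 (T58A), 9.80, 13.1 and 18.0 (S62A) and 7.06, 6.83 and 5.75 (splenomegaly) CPM. It was called against neither lymphoma in the comparisons with controls, and was lower in splenomegaly masses than in S62A lymphomas, at -1.06 ± 0.30 (adjusted p = 0.0119), and than in T58A lymphomas, at -1.03 ± 0.30 (adjusted p = 0.0164). The c ring is encoded by several genes with one mature protein, of which Atp5g3 was listed at 802, 753 and 706 (controls), 819, 994 and 859.7 (T58A), 818, 886 and 929.9 (S62A) and 724, 643 and 803 (splenomegaly) FPKM and Atp5g1 at 1.5, 2.08 and 1.31 (controls), 3.24, 2.32 and 1.17 (T58A), 2.91, 1.5 and 2.12 (S62A) and 1.73, 3.41 and 0.329 (splenomegaly) FPKM. Atp5g2 was not tested, and its transcript shares 87.4% of its windows with other genes, so the low value of Atp5g2 is uncertain.

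Direct comparison of the lymphomas showed 0 genes higher and 1 lower in S62A than in T58A, the lower one being Cox4i2, beside 3.15% of all genes tested (0.859% higher and 2.29% lower). By the edgeR quasi-likelihood test 4 of the 81 had an unadjusted p under 0.05, DESeq2 called 0 higher and 1 lower, and limma-voom called 0. Over all genes DESeq2 called 578 higher and 1156 lower, and limma-voom only 1 higher and 0 lower. The median log2 difference of the 81 was -0.05, and the 95% interval reached a median of 0.35 to either side. A difference of that size could therefore have gone undetected in a typical gene. Splenomegaly masses had 4 higher and 22 lower genes than S62A lymphomas (54.3% of all genes called, 25.6% higher and 28.6% lower), and 1 higher and 23 lower than T58A lymphomas (45.1% called, 20.5% higher and 24.6% lower). Libraries of the groups did not overlap in 36 of the 81 genes against S62A lymphomas, beside 58.1% of all genes, and in 43 against T58A lymphomas, beside 56% of all genes. Median log2 differences were -0.25 in both, against -0.07 over all genes tested in both.

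Genes higher in splenomegaly masses than in S62A lymphomas were Cox4i2, Ndufa1, Ndufs8 and Sdhb, the latter pair at 0.52 ± 0.12 (adjusted p = 0.00452) and 0.51 ± 0.14 (adjusted p = 0.0112). The largest falls against S62A lymphomas were those of Cox6b2, -3.16 ± 0.99 (adjusted p = 0.0192), of Atp5s and of Ndufb4, -0.96 ± 0.23 (adjusted p = 0.00478). Against T58A lymphomas they were those of Cox6b2, -3.79 ± 1.01 (adjusted p = 0.0106), of Atp5s and of Cox6c. Complex I, with Ndufa4 counted in it, supplied 13 of the 22 and 14 of the 23 lower genes. Ndufc2 was -0.84 ± 0.14 (adjusted p = 0.000431) and -0.89 ± 0.14 (adjusted p = 0.00046), and Ndufs4 was -0.74 ± 0.10 (adjusted p = 0.000123) and -0.74 ± 0.10 (adjusted p = 0.000209), against S62A and T58A lymphomas.

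Summed per length, the 37 genes of complex I came to 5811 ± 356 (SD, n = 3) FPKM in controls, 5877 ± 507 in T58A lymphomas, 5284 ± 754 with S62A and 4436 ± 194 in the splenomegaly group. That sum takes in Ndufa4, now counted with complex IV, at means of 453, 637, 613 and 364 FPKM in the same order. Sums of complex IV leave Ndufa4 out. As shares of the control mean, splenomegaly masses stood at 76.3% ± 3.33 for complex I, 89.6% ± 4.15 for complex II, 70.7% ± 3.52 for complex III, 72.5% ± 4.43 for complex IV and 83.4% ± 3.93 for ATP synthase (SD, n = 3). T58A lymphomas stood at 101% ± 8.73, 90.05% ± 3.59, 87.3% ± 4.31, 96.0% ± 7.62 and 102% ± 7.59 in the same order, and S62A lymphomas at 90.9% ± 13.0, 82.3% ± 5.29, 86.8% ± 17.5, 82.2% ± 2.80 and 97.8% ± 5.99. With 3 libraries in each group an exact permutation test cannot give a p below 0.1, so these sums are given without one. All 3 splenomegaly masses lay below all 3 controls in the sums of complexes I, III, IV and V, also with FPKM divided by the TMM factor of each library. With that division the shares in splenomegaly masses were higher, at 82.3% for complex I, 96.5% for complex II and 76.2% for complex III.

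**Figure D4:**
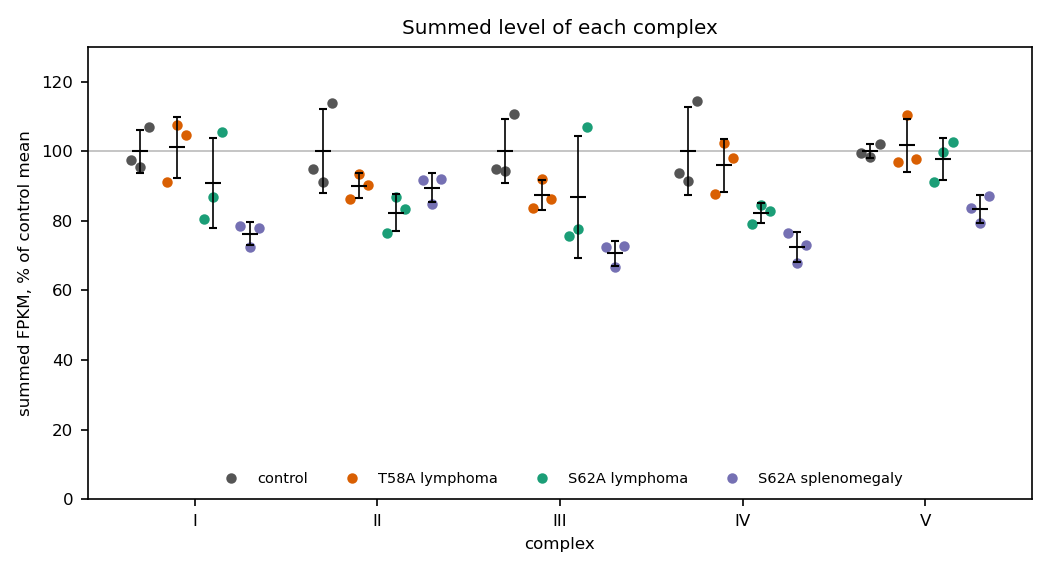
Summed FPKM of each complex as a percentage of its control mean, by group, with 1 point per library and a bar for the mean ± SD of 3 libraries. The control mean takes in control 3, the highest control in every complex. Splenomegaly masses have the lowest means in complexes I, III, IV and V, and S62A lymphomas are more spread out than the masses in complexes I and III.

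Base composition moved with the direction of change. Among the tested genes the transcripts that were lower in T58A lymphomas than in controls had a median G+C content of 58.4% and the higher ones 48.8%, beside 51.7% for all 81. The medians were 56.9% and 47.4% for genes lower and higher in S62A lymphomas, and 54.0% for those lower in splenomegaly masses. Across the 81 genes Spearman's rho between G+C content and the log2 difference was -0.44, -0.61 and -0.23 in T58A lymphomas, S62A lymphomas and splenomegaly masses, against -0.15, -0.24 and -0.09 over all genes. These are correlations across genes of the same 12 libraries, which share controls and are not independent replicates. When counts were offset by G+C content, an alternative added after seeing the data, 6 genes were higher and 6 lower in T58A lymphomas, 7 and 7 with S62A, and 3 and 14 in the masses with splenomegaly. These were in part other genes. Of the calls without the offset, 6 of 7 higher and 5 of 8 lower were kept in T58A lymphomas, 4 of 8 and 5 of 14 with S62A, and 2 of 2 and 14 of 28 in splenomegaly masses. Of the 7 genes called lower in all 3 groups, Ndufa11 alone kept every call under the offset, while Cox8a and Cox7a2 lost theirs in S62A lymphomas, Ndufa13 and Ndufv3 in S62A lymphomas and masses, Ndufs7 in T58A lymphomas and masses, and Ndufb7 in all.

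**Figure D5:**
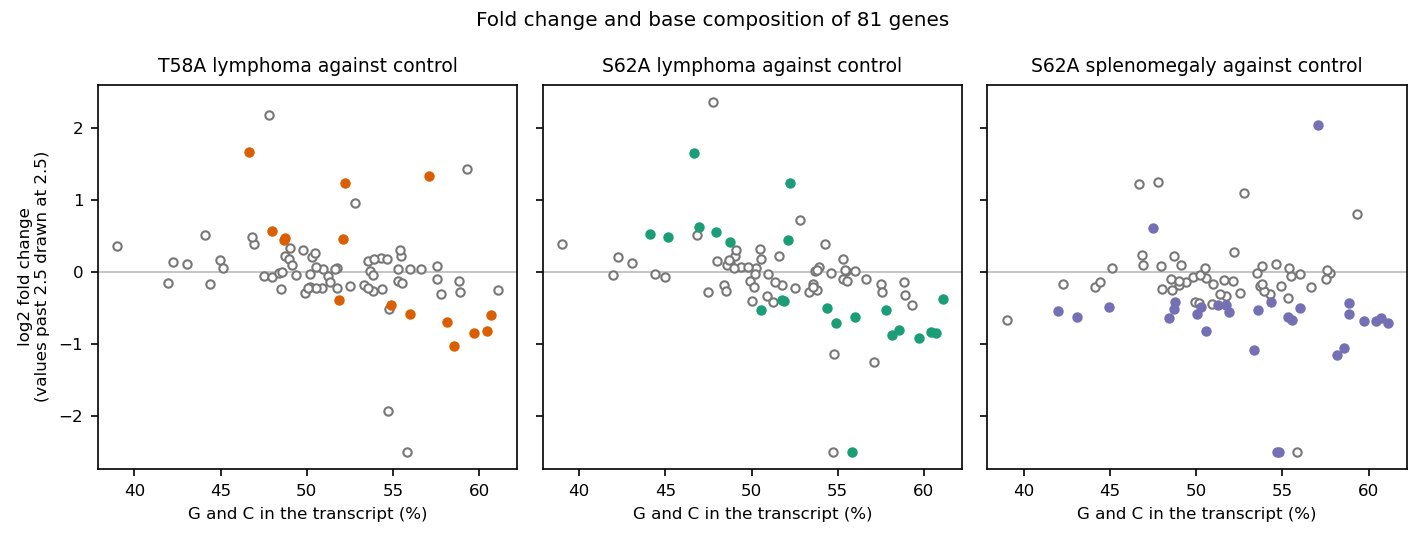
Log2 difference from controls of each tested gene against the G+C percentage of its transcript, in T58A lymphomas, S62A lymphomas and splenomegaly masses; filled points passed an adjusted p of 0.05. Filled points below 0 lie mostly to the right in both lymphoma panels.

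Calls were also found among genes with little shared sequence. Of the 84 transcripts 38 had no 50-base window in another gene, 30 had at least 10% shared and 5 at least 50%. Among the 52 tested genes under 10%, 4 were higher and 6 lower in T58A lymphomas, 6 and 11 with S62A, and 2 and 20 in the masses with splenomegaly.

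Calls were unevenly stable. In T58A lymphomas 6 of the 15 calls against controls held in every setting with at least 2 libraries in each group, those of Ndufa9, Ndufb4, Cox8a, Ndufa11, Ndufa13 and Ndufv3. Cox8a, Ndufa11 and Ndufv3 also passed against control 3 alone, the control with brown fat transcripts and the single control that shares a title code with the T58A lymphomas. In S62A lymphomas 5 of 22 held in every setting tried: Ndufa9, Ndufb4, Ndufa11, Ndufs7 and Sdhb. In splenomegaly masses 11 of 30 did so: Cox4i2 and Ndufa1 among the higher genes, and Atp5d, Atp5h, Atp5j2, Cox6b2, Cox7a2, Cox8a, Ndufa11, Ndufb6 and Ndufs4 among the lower. Leaving out control 1, 2 or 3 left 2, 2 or 4 higher genes in T58A lymphomas, and leaving out T58A lymphoma 1 or 3 left 4 or 3, while the 8 lower genes became 5 without control 3. In S62A lymphomas the 8 higher genes became 2, 2 or 5 without control 1, 2 or 3 and 5 or 4 without S62A lymphoma 2 or 3, and the 14 lower became 8 without control 3 or without S62A lymphoma 1. The 28 genes lower in splenomegaly masses became 15 without control 3 and 16 without splenomegaly mass 2 or 3, and the median over the 81 became -0.13 without control 3. The 22 genes lower in masses than in S62A lymphomas became 11 without S62A lymphoma 3 and 14, 9 or 8 without mass 1, 2 or 3. The 23 genes lower than in T58A lymphomas became 15 without T58A lymphoma 2 or mass 3. Of the calls against controls that were lost without control 3, most were also lost without control 1 or 2. The exceptions were Ndufs7 in T58A lymphomas, Cox8b in S62A lymphomas, and Cox6c, Cox7a1 and Uqcr11 in splenomegaly masses. Other calls lost without control 3 were those of Ndufa2, Ndufa4 and Ndufa8 in S62A lymphomas and of Ndufa3, Ndufa5, Ndufa6, Ndufa8, Ndufb3 and Ndufc1 in splenomegaly masses.

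Other genes of the pathway were read from separate lists. Of 33 genes of mitochondrial protein import, 17 were higher and 0 lower in T58A lymphomas than in controls, 16 and 1 with S62A, and 4 and 5 in the masses with splenomegaly, with medians of 0.46, 0.41 and -0.13. Unadjusted p-values under 0.05 came to 17 of 33 in T58A lymphomas, DESeq2 called 16 higher and 0 lower there, and without control 3 edgeR called 12 higher and 0 lower. The same test called 18.8% of all genes higher in T58A and 21.9% in S62A lymphomas. Tomm70a, an import receptor of the outer membrane, was listed at 42.9, 39.9 and 41.6 (controls), 87.3, 73.9 and 87.9 (T58A), 94.1, 97.6 and 114 (S62A) and 41.8, 52.0 and 52.7 (splenomegaly) FPKM, and each lymphoma library lay above all controls, by 1.03 ± 0.13 (adjusted p = 0.000172) for T58A and 1.39 ± 0.13 (adjusted p = 2e-05) for S62A. Of 75 genes of the mitochondrial ribosome, which makes the subunits encoded in mitochondrial DNA, 24 were higher and 4 lower in T58A lymphomas, 23 and 4 with S62A, and 6 and 13 in the masses with splenomegaly. Without control 3 these became 16 and 1, 20 and 0, and 4 and 11. Mrpl16 was higher in all 3 groups, by 1.11 ± 0.12 (adjusted p = 9.06e-05), 1.17 ± 0.12 (adjusted p = 5e-05) and 1.15 ± 0.12 (adjusted p = 3.46e-05).

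Assembly factors were called at shares near or under those of all genes tested, which were 36.2%, 44.1% and 49.2% in T58A lymphomas, S62A lymphomas and splenomegaly masses. Of 15 for complex I, 4 were higher and 1 lower in each lymphoma (33.3% called) and 2 higher and 2 lower in splenomegaly masses (26.7%). Ndufaf4 rose by 0.84 ± 0.15 (adjusted p = 0.0017) in T58A and 1.18 ± 0.15 (adjusted p = 0.000161) in S62A lymphomas, and Ndufaf3 fell, at -1.12 ± 0.24 (adjusted p = 0.00484) and -1.27 ± 0.25 (adjusted p = 0.00198). Of 21 for complex IV, 7 were higher and 1 lower in T58A lymphomas, 6 and 2 with S62A, and 6 and 5 in the masses with splenomegaly (38.1%, 38.1% and 52.4% called), with Sco1, a copper carrier for complex IV, higher in all 3 groups by 0.96 ± 0.16 (adjusted p = 0.00115), 1.16 ± 0.16 (adjusted p = 0.000294) and 0.88 ± 0.16 (adjusted p = 0.00115). Of 10 for complexes II and III, 1 was higher and 1 lower in T58A lymphomas, 1 and 2 with S62A, and 1 and 3 in the masses with splenomegaly, and Lyrm7 fell in each, at -1.03 ± 0.28 (adjusted p = 0.0145), -1.01 ± 0.28 (adjusted p = 0.0136) and -1.75 ± 0.29 (adjusted p = 0.000546). Of 4 for ATP synthase, inhibitor included, 0, 1 and 2 were lower and none higher, and Atpif1, the inhibitor of the reverse reaction, fell in splenomegaly masses, at -0.70 ± 0.14 (adjusted p = 0.00149). For T58A lymphomas 0 of these 4 had an unadjusted p under 0.05 by the edgeR quasi-likelihood test, and DESeq2 and limma-voom called 0.

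Upstream of the chain, 18 genes of pyruvate oxidation and the citric acid cycle had 3 higher and 1 lower in T58A lymphomas, 4 and 1 with S62A, and 2 and 5 in the masses with splenomegaly, shares under those of all genes. Suclg2, which gives the GTP-forming subunit of succinyl-CoA ligase, was higher in all 3, by 1.53 ± 0.19 (adjusted p = 0.000199), 1.30 ± 0.19 (adjusted p = 0.000378) and 0.98 ± 0.19 (adjusted p = 0.00157), and Idh2 was lower in T58A and S62A lymphomas, at -1.13 ± 0.39 (adjusted p = 0.0424) and -1.41 ± 0.40 (adjusted p = 0.0144). Of 19 genes for cytochrome c, ubiquinone synthesis and the dehydrogenases that feed ubiquinone, 1 was higher and 0 lower, 4 and 1, and 1 and 2 in the same order. Of 4 subunits whose symbols the rule does not take, 0 and 0, 1 and 0, and 0 and 1 were higher and lower.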

How the data were processed

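Polyadenylated RNA was sequenced from 12 mouse thymic libraries in 4 groups of 3, taken from the sample labels. For every RefSeq transcript the authors deposited raw read counts, as whole numbers, and FPKM values, which are scaled to transcript length and library depth. Per the submitters' processing notes, bcl2fastq 2.20.0.422, Bowtie 1.0.0 and DESeq2 were used with build mm9. Not given in the sources used here are the counting tool, its use of strand and its handling of reads that map to several genes. Gene positions come from the deposited tables on mm9, with starts assumed to be counted from 0 there and printed counted from 1, while promoter positions are on GRCm38.p6 and were not mixed with them.

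Deposited counts of 24478 genes were tested in R 4.3.3 with edgeR 4.0.16: filterByExpr with a minimum count of 10 left 15606 genes, libraries were scaled by TMM factors, and the quasi-likelihood test was run in one model of all 12 libraries with group as its term. Adjusted p-values follow Benjamini and Hochberg over all genes of a comparison and were called at 0.05. Every log2 difference and test against another group rests on counts, and CPM values are reads scaled to library depth by TMM. The deposited FPKM values, which carry no TMM factor, are compared between genes and are also listed by library for tissue isoforms, the highest genes, summed complexes, markers and genes of other lists. Orders of libraries given in FPKM for respiratory genes also held in CPM unless stated. Values after ± are standard errors for log2 differences and SD elsewhere. Transcript G+C content and shared 50-base windows came from GENCODE M21 transcripts. The test was checked on simulated data. Alternatives were DESeq2 1.42.0, limma 3.58.1 (also on log2(FPKM + 1) and log2(FPKM + 0.1)), other scaling, no filter, sums over transcripts, a G+C offset over 20 bins and leaving out each library.

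The genes and the lists were chosen with earlier results of these data known. Per comparison, the 3 largest rises and 3 largest falls among called genes were named, with the tissue isoform sets, the highest gene of each complex and Myc, and from each list the genes with the smallest adjusted p. Other named genes were chosen after their values were seen.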

Additional observations from a re-analysis of the deposited data

Results flagged for a closer look

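Cox4i2 was the single tested gene of the respiratory chain with a difference between the lymphomas, at -2.60 on the log2 scale for S62A minus T58A. S62A lymphomas held 0.255, 0.790 and 0.400 CPM and T58A lymphomas 3.18, 3.94 and 1.67 CPM, with 448 reads of Cox4i2 over all 12 libraries. It was called in 11 of 16 alternatives, whose adjusted p by edgeR, DESeq2 or limma ran from 6.80e-05 to 0.239 and whose log2 differences ran from -3.14 to -1.78. Pericyte markers were also lower in S62A lymphomas, at 19.8 to 29.9 against 34.7 to 89.3 summed FPKM, and their part in the difference was not tested. The S62A lymphomas share 1 code in their titles and the T58A lymphomas another, so that code and mutant cannot be told apart.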

How the results depend on the processing

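Each alternative changed 1 choice, except that DESeq2 brought its own scaling and no low-count filter, and that limma on log2(FPKM + 1) or log2(FPKM + 0.1) changed values and test together. Over 1900 log2 differences of called genes under alternatives, 1444 kept direction and call, 455 kept the direction without passing, and 1 reversed: Atp5d in S62A lymphomas against controls became 0.0692 with the G+C offset, which was added after seeing the data. The cause of each change below was not tested unless the alternative itself uses fewer samples or genes.

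Genes higher in T58A lymphomas than in controls came to 4 when scaled by library size alone, 3 without the low-count filter, 4 with reads summed over transcripts and 0 against control 3 alone, the single control with title code H and the one with brown fat transcripts. Leaving out a library gave 2 to 5 higher and 5 to 8 lower. In S62A lymphomas against controls, 3 were higher by library size alone, 5 without the filter, 5 by limma-voom and 3 by limma on log2(FPKM + 1) and on log2(FPKM + 0.1), and 7 were lower with the G+C offset. Leaving out a library gave 2 to 8 higher and 8 to 19 lower. In splenomegaly masses against controls, 14 were lower with the G+C offset and 15 to 21 without a library.

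Between lymphomas, 0 genes were lower with only these groups fitted and 0 by limma-voom, and 0 to 1 without a library. Over all genes, the fit of only these groups called 0 higher and 0 lower, and limma-voom called 1 higher and 0 lower. A count of 0 under these settings therefore cannot set the respiratory genes apart. Against S62A lymphomas, genes lower in splenomegaly masses came to 11 with DESeq2 size factors, 12 without the filter, 12 summed over transcripts, 8 with only these groups and 7 by limma-voom, and to 8 to 24 without a library. Against T58A lymphomas, 2 were higher with DESeq2 size factors, 4 by DESeq2 and 2 with the G+C offset, and leaving out a library gave 1 to 2 higher and 15 to 21 lower.

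With FPKM divided by the TMM factor of each library, sums were again taken as a share of the control mean. In splenomegaly masses they were 82.3% for complex I, 96.5% for II, 76.2% for III, 78.2% for IV and 89.98% for V. In S62A lymphomas they were 87.9% for II, 87.8% for IV and 104% for V. With reads summed over transcripts, the mean share of Cox4i2 in its pair was 0.128%, 0.305%, 0.0635% and 0.539%, and of Cox6b2 25.7%, 17.5%, 13.1% and 1.81%, in controls, T58A lymphomas, S62A lymphomas and splenomegaly masses. No paired analysis was possible because replicate numbers follow deposit order and pair nothing. Low read counts limit Cox7c, Cox4i2, Atp5g1 and Atp5l, which held 220, 448, 235 and 67 reads over 12 libraries. Of their 50-base windows 53.0%, 0%, 11.6% and 84.8% in the same order also occur in other genes. How such reads were assigned is not given in the sources used here, so the low values of Cox7c and Atp5l are uncertain. The 3 libraries in each group limit every comparison.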

Other observations

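Of 21 regulators of mitochondrial biogenesis and of mitochondrial DNA tested, 3 were higher and 1 lower in T58A lymphomas than in controls, 3 and 3 with S62A, and 1 and 8 in the masses with splenomegaly. These were 19.0%, 28.6% and 42.9% called, under the 36.2%, 44.1% and 49.2% over all genes tested. Nrf1, the factor whose motif was searched in the promoters, was listed at 40.2, 41.6 and 39.4 (controls), 29.0, 30.9 and 33.2 (T58A), 23.5, 34.9 and 27.1 (S62A) and 19.1, 14.9 and 18.2 (splenomegaly) FPKM. Splenomegaly masses lay below every other library, and the log2 difference from controls was -1.11 ± 0.15 (adjusted p = 0.000166). Top1mt, the mitochondrial topoisomerase, was listed at 4.20, 3.40 and 4.31 (controls), 10.1, 45.5 and 38.0 (T58A), 18.6, 28.1 and 11.6 (S62A) and 6.99, 6.83 and 7.95 (splenomegaly) FPKM and rose by 2.99 ± 0.49 (adjusted p = 0.000949) in T58A and 2.38 ± 0.48 (adjusted p = 0.0025) in S62A lymphomas. Of 15 genes of the response to low oxygen, 3 were higher and 1 lower in each lymphoma, and 5 and 4 in splenomegaly masses (26.7%, 26.7% and 60.0% called). Egln3, an oxygen sensor, was listed at 23.0, 21.0 and 20.1 (controls), 85.4, 100.1 and 90.7 (T58A), 115, 147 and 259 (S62A) and 5.53, 3.93 and 6.69 (splenomegaly) FPKM, with differences of 2.13 ± 0.28 (adjusted p = 0.000236), 3.12 ± 0.29 (adjusted p = 2.09e-05) and -1.87 ± 0.28 (adjusted p = 0.000303). Of 13 genes of uncoupling and peroxide defence, 1 was higher and 1 lower in T58A lymphomas, 2 and 1 with S62A, and 3 and 3 in the masses with splenomegaly (15.4%, 23.1% and 46.2% called).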
